A study of Mus musculus with 3 samples.

Results

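The molecular circadian clock was examined through the open chromatin of 10 of its genes in hair follicle stem cells (HFSCs) of the mouse. The genes were taken by name from 21851 protein-coding genes: the activators Arntl (also named Bmal1) and Clock, the repressors Per1, Per2, Per3, Cry1, Cry2, Nr1d1 and Nr1d2, and the output gene Dbp. Each gene was searched for peaks from 10 kb before its outermost start site to its end in GRCm38. CLOCK and BMAL1 bind together at E-box sequences and drive the Per, Cry, Nr1d and Dbp genes. The PER and CRY proteins then inhibit CLOCK and BMAL1, the REV-ERB proteins encoded by Nr1d1 and Nr1d2 repress Arntl, and DBP acts at D-box sequences. In skin the clock is known to run in keratinocytes and in hair follicles, where clock gene levels change over the day and with the hair cycle.

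Open DNA was mapped by Omni-ATAC-seq, an assay that uses the Tn5 transposase to insert sequencing adapters where chromatin can be reached. The series held 1 library from wild-type mice (Msx2-WT, hereafter WT) and 2 libraries from germline Msx2 knockout mice (Msx2-KO, hereafter KO replicates 1 and 2), in which a neo cassette sits upstream of exon 2 of this homeobox transcription factor gene. All were CD34+CD49f+Sca-1- cells sorted from untreated dorsal skin at 6 months of age, while hair follicles rested in telogen, and the wild-type mice were C57BL/6J per the study's methods. The number of mice behind a library and the time of day of collection were not given in the sources used here. WT and KO were labelled as separate batches. Genotype, batch and time of day cannot be told apart, and a single WT library allowed no test of genotype. Names of peaks in the KO lists read cKO, and in KO replicate 1 they hold a library number that is not the labelled one. Groups were taken from the labels.

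Depth differed between the libraries. A tag is a read counted by the peak caller, and the background of a library is its commonest number of tags expected by chance in a counting window, which was 1.74 in WT, 0.476 in KO replicate 1 and 0.790 in KO replicate 2. The shallow KO replicate 1 needed at least 5 tags for a summit past a q-value of 0.01, compared with 9 in WT and 6 in KO replicate 2. Promoter peaks were found at 9, 7 and 9 of 10 HFSC marker genes in WT and KO replicates 1 and 2, with none at Nfatc1 in any library and none at Krt15 and Cd34 in KO replicate 1. Promoter peaks were found at 0 of 4 leukocyte and 0 of 2 endothelial markers, at 2 of 4 melanocyte markers in each library, and at 2, 0 and 2 of 3 fibroblast markers. Their part in the values of the clock genes was not tested. Msx2 itself had a promoter peak in every library (15, 9 and 16 tags), which gave no check of the labels.

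The sequences under the peaks show where the binding letters of clock proteins lay. The reference was searched on both strands for CACGTG, the E-box, for CACGTT, a variant called here the E-prime box, and for TTATGTAA or TTACGTAA, the D-box. It was also searched for TGACGTCA, the cyclic AMP response element (CRE), and for TAGGTCA or TGGGTCA, called here the REV-ERB/ROR letters. These letters are only a part of the element shared by REV-ERB and ROR proteins, and the full element was not searched. A match is a description of the letters, not a bound site. The E-box and the E-prime box differ only in the last base, so no stretch was counted as both, while partial overlaps between other motifs were allowed. The following stretches of GRCm38 hold a selection of the matches inside the peaks described in the text, written 5′ to 3′ on the strand of the gene with the motif in capitals. In Dbp the last E-box is an exception, as it runs past the end of the WT peak and was not counted inside it. The E-prime box of Dbp lay inside the WT peak only.
Per1 outermost promoter, E-boxes, chr11:69094863-69095092, plus strand: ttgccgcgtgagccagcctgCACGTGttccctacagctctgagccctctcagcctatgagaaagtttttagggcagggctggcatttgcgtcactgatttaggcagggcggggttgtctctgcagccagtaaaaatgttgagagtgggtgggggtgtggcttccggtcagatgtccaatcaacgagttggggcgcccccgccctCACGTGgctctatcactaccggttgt
Per1 between its first and second start sites, CRE, chr11:69097172-69097239, plus strand: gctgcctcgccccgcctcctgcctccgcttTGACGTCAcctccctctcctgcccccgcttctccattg
Per2 promoter, D-box, chr1:91459412-91459479, minus strand: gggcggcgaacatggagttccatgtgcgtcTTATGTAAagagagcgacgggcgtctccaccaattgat
Per2 start site, E-prime box, chr1:91459304-91459329, minus strand: cgcgcgcggtCACGTTttccactatg
Per3 promoter, D-boxes, chr4:151044796-151044890, minus strand: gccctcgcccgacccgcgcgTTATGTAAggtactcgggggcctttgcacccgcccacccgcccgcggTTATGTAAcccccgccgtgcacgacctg
Cry1 promoter, E-prime box then E-box, chr10:85185089-85185153, minus strand: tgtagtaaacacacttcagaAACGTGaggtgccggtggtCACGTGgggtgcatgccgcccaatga
Cry2 promoter, E-prime box, chr2:92434200-92434265, minus strand: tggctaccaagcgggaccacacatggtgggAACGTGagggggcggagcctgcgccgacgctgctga
Nr1d1 promoter, E-prime box, chr11:98775370-98775435, minus strand: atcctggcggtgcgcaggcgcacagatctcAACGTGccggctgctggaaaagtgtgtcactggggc
Nr1d1 intron 1, E-box then D-box, chr11:98774060-98774179, minus strand: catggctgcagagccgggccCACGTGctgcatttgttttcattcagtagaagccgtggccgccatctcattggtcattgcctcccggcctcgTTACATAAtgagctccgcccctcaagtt
Nr1d1 intron 1, E-boxes, chr11:98773839-98773899, minus strand: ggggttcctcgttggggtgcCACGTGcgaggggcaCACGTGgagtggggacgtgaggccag
Nr1d2 intron 1, E-boxes with a D-box after the first, chr14:18238505-18238698, minus strand: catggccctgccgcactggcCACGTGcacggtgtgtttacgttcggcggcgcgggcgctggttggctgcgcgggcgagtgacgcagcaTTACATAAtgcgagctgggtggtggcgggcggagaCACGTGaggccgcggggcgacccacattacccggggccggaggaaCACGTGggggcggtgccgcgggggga
Dbp intron 2, E-boxes with an E-prime box between them, chr7:45707692-45707850, plus strand: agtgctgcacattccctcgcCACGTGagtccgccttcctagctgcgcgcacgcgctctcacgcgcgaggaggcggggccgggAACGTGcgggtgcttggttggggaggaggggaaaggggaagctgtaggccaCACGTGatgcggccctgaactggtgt

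All 10 genes had a promoter peak, taken as a summit within 1500 bases of a start site and past a q-value of 0.01, in every library. Across all protein-coding genes, 47.1% had one in WT, 37.9% in KO replicate 1, 53.7% in KO replicate 2 and 35.2% in every library. It follows that at this limit no clock gene had a promoter peak in one genotype alone. Over all genes, 2.32% had one in both KO libraries but not in WT and 2.11% had one in WT alone. At shares this small, 10 genes are too few for a contrast with all genes. With lists of equal length 9 of the 10 genes had one in WT and 10 in each KO library, so that Clock then had one in the KO libraries only. The share of all genes with that pattern was not computed at this setting, so the change at Clock is a description. At a −log10 q of at least 5, Clock lacked one in WT and KO replicate 1 and Nr1d1 in KO replicate 1. In these bulk samples a site open in more cells and a site more open in each cell cannot be told apart. The highest promoter summit lay upstream of the nearest start in 28 of 30 cases, by 42 to 330 bases with a median of 115.5. The exceptions were Clock in WT, with its summit 57 bases past the start, and Nr1d1 in KO replicate 2, with its summit 883 bases past the start. Where 2 summits tied in tags, the one with the higher −log10 q was taken. Nr1d1 had such a tie in both KO libraries, and its other summit lay 1317 and 1293 bases past the start.

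**Figure D1:**
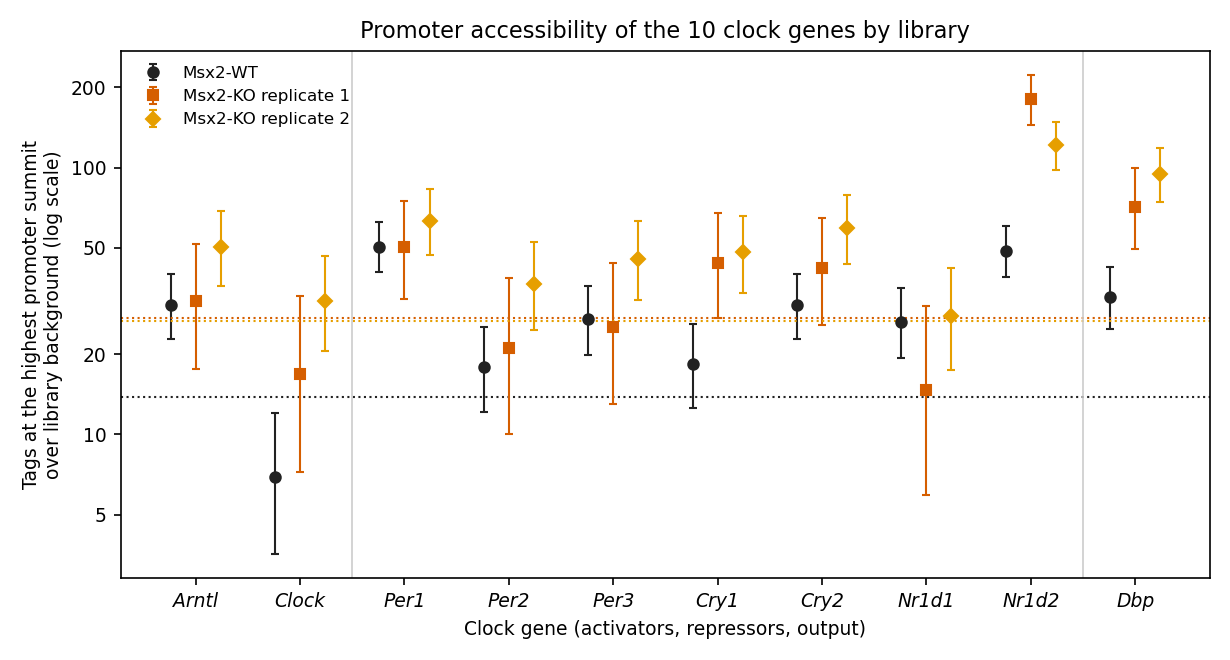
Tags at the highest promoter summit of each clock gene over the background of the library, on a log axis, with 95% Poisson intervals for counting error. Dotted lines mark the median over all genes with a promoter peak in the same library (13.8 in WT, 27.3 and 26.6 in KO replicates 1 and 2). Clock in WT is the lowest point at 6.90 and Nr1d2 in KO replicate 1 the highest at 181.

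The 2 activators differed in promoter tag number. Arntl (ENSMUSG00000055116.8, chromosome 7 from 113207465 to 113314126, plus strand) had 53 tags at its highest promoter summit in WT (95% Poisson interval 39.7 to 69.3), 15 in KO replicate 1 (8.40 to 24.7) and 40 in KO replicate 2 (28.6 to 54.5). Over the background of each library these were 30.5, 31.5 and 50.6, at the 90.6th, 59.4th and 81.4th percentile of all genes with a promoter peak. The summits fell 113, 75 and 70 bases before the first start site. Clock (ENSMUSG00000029238.11, chromosome 5 from 76209868 to 76304792, minus strand) had 12 tags in WT (6.20 to 21.0), 8 in KO replicate 1 (3.45 to 15.8) and 25 in KO replicate 2 (16.2 to 36.9), or 6.90, 16.8 and 31.6 over background. Clock was the lowest of the 10 genes in WT, where it stood at the 12.2th percentile, and it stood at the 24.4th and 58.5th in KO replicates 1 and 2. None of the 5 motifs lay within 150 bases of the highest summit of either activator.

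The 3 Per genes, whose proteins form the inhibitory complex with CRY, differed in where their chromatin was open. Per1 (ENSMUSG00000020893.17, chromosome 11 from 69095217 to 69109960, plus strand) had its highest promoter summit not at the start of its main transcript (69098948) but at its outermost start (69095217). There it held 88 tags in WT, 24 in KO replicate 1 and 50 in KO replicate 2 (50.6, 50.4 and 63.3 over background), with summits 194, 196 and 206 bases before that start. The summit fell between a pair of E-boxes at 331 and 147 bases before the start, the first sequence printed above. At the main start a summit past the limit was present in WT (29 tags, 11 bases before it) and KO replicate 2 (24 tags, 89 bases past it) but not in KO replicate 1. Per2 (ENSMUSG00000055866.9, chromosome 1 from 91415982 to 91459324, minus strand) had 31, 10 and 29 tags (17.8, 21.0 and 36.7 over background) at summits 133, 44 and 104 bases before its single start. A D-box lay 122 bases before the start and an E-prime box 7 bases past it. Per3 (ENSMUSG00000028957.12, chromosome 4 from 151003652 to 151044665, minus strand) had 47, 12 and 36 tags (27.0, 25.2 and 45.6 over background), and its summits at 207, 167 and 265 bases before the start lay beside 2 D-boxes at 202 and 155 bases before it. The gene Camta1 overlaps the Per3 summit in the annotation, and reads there cannot be assigned to one of the 2 genes.

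The Cry genes encode the other members of the inhibitory complex, and both had 20 tags or more at the promoter in each library. Cry1 (ENSMUSG00000020038.10, chromosome 10 from 85131700 to 85185064, minus strand) had 32, 21 and 38 tags (18.4, 44.1 and 48.1 over background). In WT the peak had 2 summits, and the lower of them (20 tags, 122 bases before the start) was the one with an E-prime box and an E-box within 150 bases, at 67 and 48 bases before the start. Cry2 (ENSMUSG00000068742.11, chromosome 2 from 92403646 to 92434043, minus strand) had 53, 20 and 47 tags (30.5, 42.0 and 59.5 over background) at summits 129, 59 and 95 bases before the start. Its E-prime box lay 190 bases before the start, within 150 bases of the summit in each library.

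The REV-ERB genes stood at opposite ends of the 10 clock genes in both KO libraries, but not in WT. Nr1d2 (ENSMUSG00000021775.11, chromosome 14 from 18204054 to 18239127, minus strand) had 85 tags in WT (67.9 to 105), 86 in KO replicate 1 (68.8 to 106) and 96 in KO replicate 2 (77.8 to 117). Over background these were 48.9, 181 and 122, and the promoter lay at the 99.1st, 99.8th and 99.4th percentile of all genes with a promoter peak. Its summits were 100, 91 and 75 bases before the start. WT had a second summit of 40 tags in intron 1, 596 bases past the start, over 3 E-boxes and a D-box, and the single-summit KO peaks covered the same letters. Nr1d1 (ENSMUSG00000020889.11, chromosome 11 from 98767932 to 98775333, minus strand) had 46 tags in WT (33.7 to 61.4), 7 in KO replicate 1 (2.81 to 14.4) and 22 in KO replicate 2 (13.8 to 33.3), or 26.5, 14.7 and 27.8 over background. It held the lowest tag number of the 10 genes in both KO libraries and ranked seventh in WT. Among all genes with a promoter peak, Nr1d1 lay at the 85.6th, 17.4th and 52.3rd percentile in WT and KO replicates 1 and 2.

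Nr1d1 had a second open site within intron 1, at 1324, 1317 and 1293 bases past the start, with 32 tags in WT, 7 in KO replicate 1 and 22 in KO replicate 2. The D-box 1249 bases past the start lay within 150 bases of this summit in all 3 libraries. At least 1 of the 3 E-boxes at 1176, 1456 and 1471 bases past the start did so as well, 3 in WT, 2 in KO replicate 1 and 1 in KO replicate 2. In KO replicate 2 a single interval of 2214 bases covered both sites without a summit upstream of the start. Dbp (ENSMUSG00000059824.12, chromosome 7 from 45705088 to 45710203, plus strand), which encodes the D-box activator, had 57, 34 and 75 tags (32.8, 71.4 and 94.9 over background), the second highest promoter in both KO libraries. Its promoter peak had 2 summits in WT and KO replicate 1 and 3 in KO replicate 2, where the interval ran over 3572 bases into intron 2. The gene Car11 overlaps the summit furthest upstream in WT and KO replicate 2.

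Set beside all promoters, the clock genes ranked high in WT and less so in KO replicate 1. Their median was 50 tags in WT, 17.5 in KO replicate 1 and 39 in KO replicate 2, compared with 24, 13 and 21 over all genes with a promoter peak. In these libraries 9, 6 and 10 of the 10 genes lay above the median of all promoters. The promoter had 2 or more summits in 6 of 10 clock genes in WT, 2 in KO replicate 1 and 6 in KO replicate 2, compared with 20.7%, 7.94% and 17.7% of all genes with a promoter peak.

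The comparison of genotypes asks whether promoter accessibility of the clock differs without Msx2. For each KO library the tags over background were divided by those of WT, and the log2 ratio was centred on the median of 7696 promoters with a peak in every library, which was 0.87 for KO replicate 1 and 1.20 for KO replicate 2. A ratio past 2-fold in the same direction in both libraries was found for 2.42% of promoters above and 3.09% below the centre. Of the 10 clock genes, 0 were past it above and 1 below. That gene was Nr1d1, at -1.72 (95% interval for counting error -3.11 to -0.56) and -1.12 (-1.93 to -0.36) in KO replicates 1 and 2. The value of Nr1d1 depended on the scale: with the fold over the local background that the authors deposited it was -0.28 and -0.04. The local background at its summit was 7.55 tags in WT, 0.974 in KO replicate 1 and 2.97 in KO replicate 2. The highest summit lay at the same upstream site in WT and KO replicate 1, at 98 and 144 bases before the start, but in intron 1 in KO replicate 2. In both KO libraries a second summit, in intron 1, had the same tag number, and the one with the higher −log10 q was taken. At the fixed intron 1 site the log2 ratio was -1.19 (-2.62 to 0.01) and -0.60 (-1.45 to 0.23), with intervals that held 0, and on the deposited fold it was 0.22 and 0.52, above the centre. The lower value of Nr1d1 was therefore not kept on every scale and site.

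**Figure D2:**
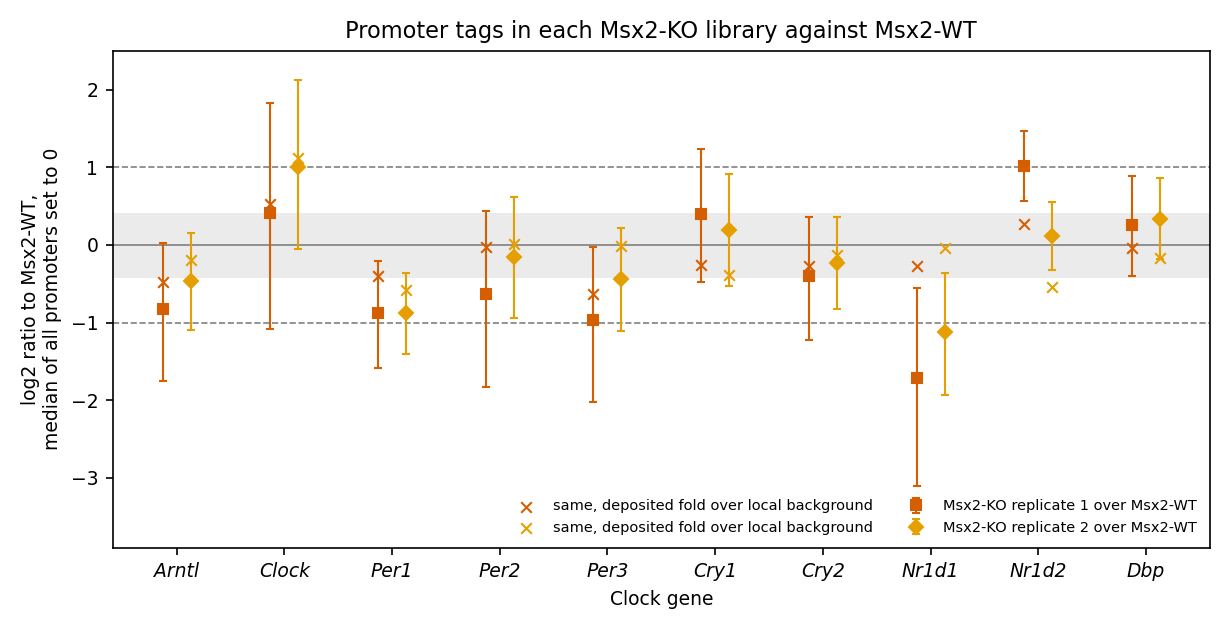
Log2 ratio of promoter tags over background in each KO library to WT, with the median of all promoters set to 0 and 95% intervals for counting error. The band spans the 25th to 75th percentile of all promoters in KO replicate 2 (-0.42 to 0.41). In KO replicate 1 these percentiles were wider apart, at -0.49 and 0.50. Dashed lines mark 2-fold, and crosses give the same ratio from the deposited fold over the local background. Nr1d1 lies past 2-fold below in both libraries at -1.72 and -1.12, while its crosses lie at -0.28 and -0.04.

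Per1 lay below the centre in both KO libraries by the same amount, -0.87 (-1.59 to -0.21) and -0.87 (-1.41 to -0.36), with intervals that left out 0 but without passing 2-fold. Before centring Per1 was at -0.01 and 0.32. The share of all promoters with intervals that left out 0 was not computed. Per3 was at -0.97 (-2.02 to -0.03) and -0.44 (-1.11 to 0.21), and Arntl at -0.82 (-1.75 to 0.03) and -0.46 (-1.09 to 0.15). Clock was the gene furthest above the centre in KO replicate 2, at 0.42 (-1.08 to 1.83) and 1.00 (-0.05 to 2.13), where 12 tags in WT set the width of the interval. Nr1d2 was at 1.02 (0.57 to 1.47) in KO replicate 1 but at 0.12 (-0.32 to 0.56) in KO replicate 2, so the replicates differed from each other by more than the second differed from WT. Per2, Cry1, Cry2 and Dbp lay between -0.63 and 0.39 with intervals that held 0. The median over the 10 genes was -0.52 and -0.19, and 6 of 10 lay below the centre in each KO library. On the deposited fold the median was -0.26 and -0.15, and 8 of 10 lay below the centre in each. Per1 was then at -0.40 and -0.57, Arntl at -0.47 and -0.19 and Per3 at -0.64 and -0.01, while Clock was at 0.52 and 1.12. The direction of Cry1 and Dbp in both libraries, and of Nr1d2 and Per2 in KO replicate 2, depended on this scale. On it Cry1 was at -0.26 and -0.38, Dbp at -0.04 and -0.17, Nr1d2 at 0.28 and -0.55 and Per2 at -0.03 and 0.01.

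Peaks away from promoters were less often shared between libraries. The 10 windows held 26 summits in WT, of which 16 lay at promoters, 9 in introns and 1 upstream. KO replicate 1 had 17, with 12 at promoters and 5 in introns, and KO replicate 2 had 29, with 18 at promoters, 9 in introns, 1 upstream and 1 in an exon. Merged by at least 1 shared base, the summits formed 23 regions, of which 14 were present in every library, compared with 27.6% of 47562 regions over all chromosomes kept. The number fell to 8 when intervals had to overlap by 50% of both, and to 9 at a −log10 q of at least 5. Of 11 promoter regions 10 were present in every library (58.4% of all promoter regions), and of the other 12 regions 4 were, all intronic (17.5% of all regions away from promoters). At this limit no region was held by both KO libraries and missing from WT, but there was 1 at a −log10 q of at least 5, 1 with every deposited peak, 3 with lists of equal length and 2 with overlap by 50% of both. By summits inside the windows, 4 regions were found in WT alone, 1 in KO replicate 1 alone and 3 in KO replicate 2 alone. Of these 3, the one at the end of Cry2 was also covered by a WT peak whose summit of 9 tags lay past the gene. The share of all 47562 regions found in 1 genotype alone was not computed. Counts of regions in 1 genotype alone were therefore read only as a description of the 10 windows.

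**Figure D3:**
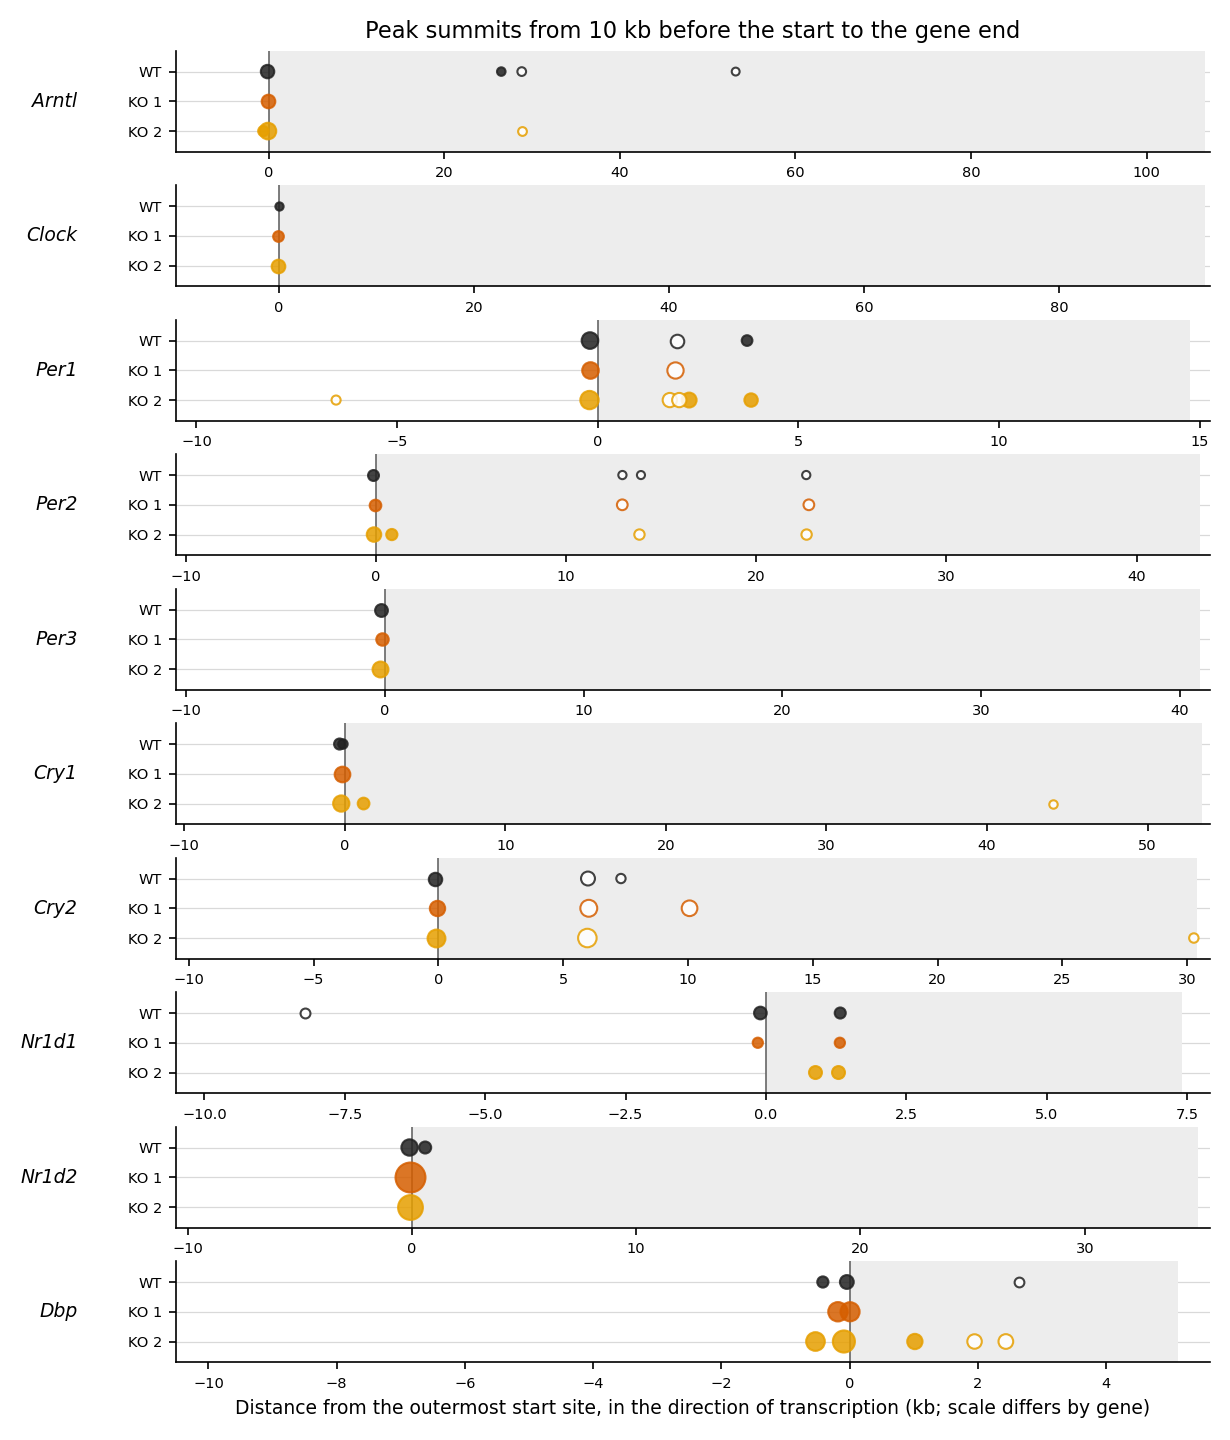
Peak summits past a q-value of 0.01 along each clock gene, by distance in kb from the outermost start site, with the gene body shaded and 1 row per library. Filled points are promoter summits, open points are upstream, intronic or exonic summits, and the area grows with the tags over background. Intronic summits at the same place in all 3 rows are seen in Per1, Per2 and Cry2.

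An intronic summit was found in 5 of 10 genes in WT, 3 in KO replicate 1 and 6 in KO replicate 2, compared with 20.2%, 12.4% and 22.1% of all genes. Per1, Per2 and Cry2 had one in every library (9.95% of all genes, and 13.4% of those with a promoter peak in every library). The strongest was in intron 1 of Cry2, 5986, 6018 and 5961 bases past the second of 2 adjacent start sites. It held 58 tags in WT, 25 in KO replicate 1 and 51 in KO replicate 2, compared with 53, 20 and 47 at the Cry2 promoter itself. None of the 5 motifs lay within 150 bases of this summit. The Per1 site lay 1968 bases past the outermost start in WT (54 tags) and 1935 bases past it in KO replicate 1 (23 tags), between the outermost and the main start. In KO replicate 2 an interval of 2694 bases held 4 summits of 24 to 31 tags from this site to the main start. The CRE of Per1 lay 21 bases from the WT summit, which was counted as intronic but lay 1763 bases before the main start. A CRE lay within 150 bases of 0.491% of all intronic summits and 3.3% of all promoter summits in WT.

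Per2 had 2 intronic regions in every library, both weak. The one in intron 9 held 12, 8 and 12 tags at 22629, 22767 and 22648 bases past the start. The other covered introns 4 and 5, with a highest summit of 12, 8 and 12 tags. In WT this region had a summit in each of the 2 introns, whereas in KO replicate 1 it lay in intron 4 and in KO replicate 2 in intron 5. None of the 5 motifs lay within 150 bases of any of these intronic summits of Per2.

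The other intronic summits came from 1 or 2 libraries. Arntl had a summit in intron 1 in WT (15 tags) and KO replicate 2 (7 tags), 1674 and 1730 bases past its internal start, and WT alone had 14 tags 655 bases before that start, counted as promoter, and 10 tags 26037 bases past it. The scaling that follows used the background alone. At promoters the median log2 ratio of tags over background to WT was 0.87 and 1.20 in KO replicates 1 and 2. Scaled values may therefore be too low. Scaled to the background of KO replicate 1, the 15, 14 and 10 tags would be 4.11, 3.83 and 2.74, under the 5 tags needed there. Whether their absence there came from depth was not tested. Scaled in the same way to KO replicate 2, the 14 tags would be 6.36, above the lowest passing number of 6, and no summit was listed at that site. The 10 tags would be 4.55, and a summit of 5 tags below the limit was listed. Cry2 had 19 tags in intron 2 in WT alone and 21 tags in intron 3 in KO replicate 1 alone, where KO replicate 2 had 16 and 15 tags below the limit, respectively. Cry1 had 6 tags in intron 10 in KO replicate 2 alone. Dbp had 22 tags in intron 2 in WT, 2448 bases past its inner start and within 150 bases of 2 E-boxes and an E-prime box, and 29 and 30 tags at 2 summits of the broad interval in KO replicate 2. Clock, Per3, Nr1d1 and Nr1d2 had no summit past the limit that was counted as intronic.

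Upstream and exonic peaks were few. Nr1d1 had 23 tags 8201 bases before its start in WT alone, with a −log10 q of 13.4 and an E-box 11 bases from the summit. Scaled to the backgrounds of KO replicates 1 and 2 this would be 6.3 and 10.5 tags, above the lowest passing numbers of 5 and 6, and neither list held a summit there even below the limit. The only other upstream summit, 6520 bases before Per1 in KO replicate 2, had 8 tags and lay at the promoter of Vamp2, a neighbouring gene. In KO replicate 2 a summit of 9 tags lay in exon 12 of Cry2, within its untranslated end, and a WT summit of 9 tags in the same merged region fell past the gene end and was not counted.

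Activators and repressors were compared per length of intron, which was nearly equal at 188.6 kb for the 2 activators and 193.1 kb for the 7 repressors. The activators had 0.106, 0 and 0.0530 intronic summits per 10 kb in WT and KO replicates 1 and 2, from 2, 0 and 1 summits. The repressors had 0.311, 0.259 and 0.311, from 6, 5 and 6 summits, in 3, 3 and 4 genes. All genes with a promoter peak had 0.140, 0.0663 and 0.160. Within the repressors, the PER genes had 0.490, 0.367 and 0.490, the CRY genes 0.262 in each library and the REV-ERB genes 0, although the second site of Nr1d1 lies inside intron 1 and was counted as promoter by its distance from the start. Promoter summits per gene were 1.5, 1 and 1.5 for activators and 1.57, 1.14 and 1.71 for repressors. With so few genes and peaks these are descriptions of the 9 genes, and the order in WT and in both KO libraries was the same. The gap between the groups in WT, 0.205 per 10 kb, was 0.0505 at a −log10 q of at least 5 and with lists of equal length.

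The motif letters were set beside those of all promoters. Within 150 bases of the highest promoter summit taken for each gene an E-box was found only in Per1, in every library (10.7%, 10.2% and 10.1% of all promoter summits in WT and KO replicates 1 and 2). An E-prime box was found in Per2 and Cry2 in every library, in Nr1d1 in WT and KO replicate 1, and in Cry1 in KO replicate 1 (5.76%, 5.78% and 5.69%). A D-box was found in Per2 and Per3 in every library, where 0.524%, 0.507% and 0.520% of all promoter summits had one. These results for Nr1d1 depended on the tie rule. In KO replicates 1 and 2 its tied summit that was not taken had 2 and 1 E-boxes and a D-box within 150 bases. The REV-ERB/ROR letters were found in Dbp alone (3.75%, 3.7% and 3.8%) and the CRE in none of the 10 genes (3.64%, 3.28% and 3.32%). The median G+C content of these windows was 65.3%, 65.8% and 65.4% in the clock genes and 64.1%, 64.8% and 64.8% in all.

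**Figure D4:**
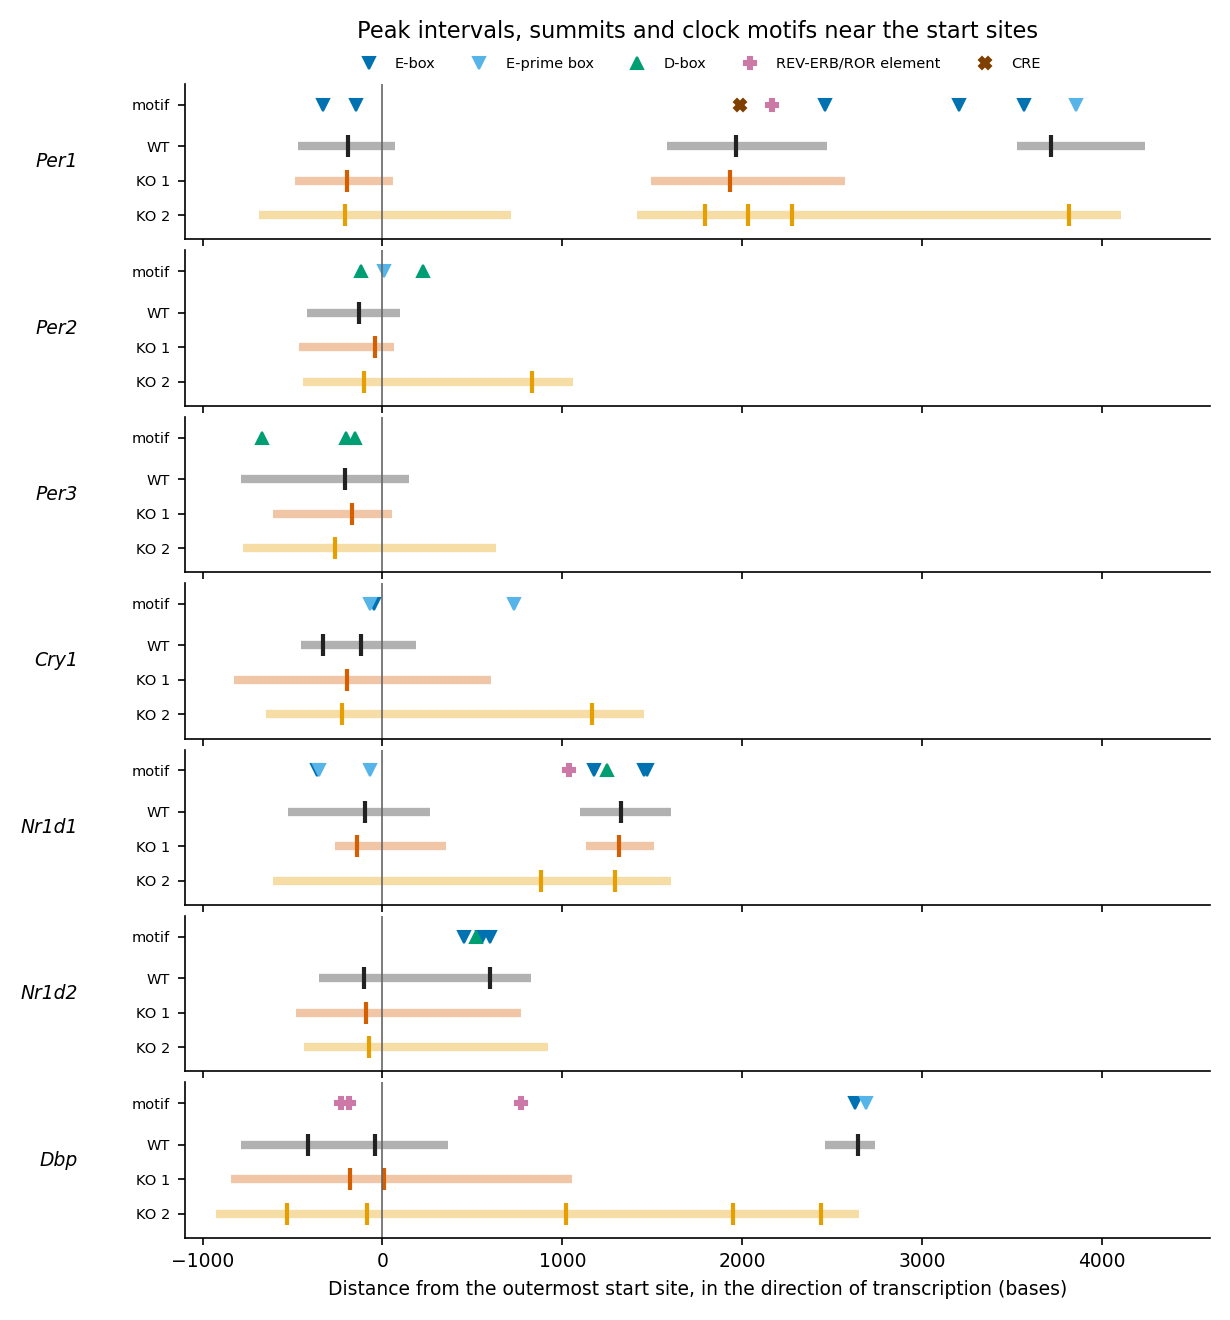
Peak intervals (bars), summits (ticks) and motif letters (symbols) by distance in bases from the outermost start site of 7 clock genes, with 1 row per library. Motifs are shown inside the merged regions only, and the REV-ERB/ROR symbol marks letters that are a part of that element. The E-boxes of Nr1d1 and Nr1d2 inside the gene lie at 1176, 1456 and 1471 bases and at 451, 554 and 599 bases past the start, and the Per1 pair lies 331 and 147 bases before it.

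Over all merged regions of the 10 windows, the E-box letters occurred 18 times in 7 genes, and 10 of these lay inside a peak interval of each library, in Per1, Cry1, Nr1d1 and Nr1d2. The D-box letters occurred 7 times, and 5 lay inside a peak of each library, in Per2, Per3, Nr1d1 and Nr1d2. Of these E-boxes only the Per1 pair lay within 150 bases of the highest promoter summit taken for a gene. E-boxes of Nr1d1 lay that close to its tied summit in both KO libraries. When each promoter or intronic summit of WT was counted, 6 of 25 had an E-box, in 6 different genes, compared with 8.55% of 21261 such summits, and 4 of 25 had a D-box, compared with 0.884%. In KO replicate 1 these were 3 and 3 of 17 (8.32% and 0.862%), and in KO replicate 2 they were 2 and 3 of 27 (7.52% and 0.988%). The REV-ERB/ROR letters lay 13 bases before the last of the 3 clustered starts of Arntl, the known target of REV-ERB, inside its promoter region in every library. They lay beyond 150 bases of the WT summit and not wholly within 150 bases of either KO summit. In the RefSeq promoter table (GRCm38.p6, 250 bases before to 50 after a start), 9 of the 10 genes had an entry. Of these, 2 held an E-box (Per1 and Cry1; 8.09% of 27025 genes), 3 an E-prime box (Cry1, Cry2 and Nr1d1; 5.44%) and 1 a D-box (Per3; 1.23%). The REV-ERB/ROR letters were held by 1 (Arntl; 7.35%) and a CRE by 0 (2.03%). Per2 was in none of these groups, although its D-box and E-prime box lay within these distances of its GENCODE start. A gene outside a group may lack an entry or have another start there, so it was not read as lacking the motif.

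Other genes of the clock were taken from a list of 20, made of further activators and repressors of the loop, PAR bZIP relatives of Dbp and the kinases and ubiquitin ligase parts that act on PER and CRY. A promoter peak was found at 17 of 20 in WT, 15 in KO replicate 1 and 20 in KO replicate 2, and at 15 in every library. Over all protein-coding genes the shares were 47.1%, 37.9%, 53.7% and 35.2%. None of the 20 differed between WT and both KO libraries. Of all genes, 2.32% had a promoter peak in both KO libraries but not in WT, and 2.11% in WT alone. Of the 15, 0 were past 2-fold in the same direction in both, beside 2.42% of promoters above and 3.09% below. With shares this small, so few genes cannot be set apart from all genes by genotype. Npas2, a relative of Clock, Rorb, which encodes an activator at REV-ERB/ROR elements, and the kinase gene Csnk1e had a promoter peak in KO replicate 2 alone, with 8, 7 and 6 tags. In WT, Npas2 and Rorb had summits of 7 and 8 tags below the limit. Rora and Timeless lacked one in KO replicate 1 alone, where each had a summit of 4 tags below the limit, beside 22 and 17 tags in WT and 17 and 20 in KO replicate 2.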

How the data were processed

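Omni-ATAC-seq libraries of sorted HFSCs (1 Msx2-WT, 2 Msx2-KO; WT and KO) were analysed from peak lists that the authors called library by library. In the study's methods, Trimmomatic was used for trimming, BWA-MEM for alignment to GRCm38 and MACS2 for peaks, after mitochondrial reads had been left out. No shifting model was used there, but reads were given a fixed shift and a fixed extension. Summits mark pile-ups of these extended reads, and their distance from cut sites was not tested. Duplicates were kept, so tags are not independent molecules. The authors deposited for each summit a fold over the local background and −log10 p and −log10 q values. The deposited score, a rescaled −log10 p, was not used.

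The lists reach a p-value of 0.01, and summits with a −log10 q above 2 (a q-value under 0.01) on the autosomes, X and Y were used. The whole tag number and local background were solved from the fold and −log10 p (at least 99.9% of summits solved, tolerance 0.002). The recovery was tested on simulated peaks. The commonest background of a library stood for its depth. Genes and starts came from the basic GENCODE M21 annotation, promoters spanned 1500 bases either side of the start of a coding transcript, and a summit was counted as intronic inside the gene span, outside promoters and outside every annotated exon. Sequences were read from the GRCm38.p6 reference. Promoter values came from the highest summit by tags, with ties settled by the higher −log10 q. Poisson intervals are at 95% and, like the ratio intervals, cover counting error only.

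All 10 genes are described. By rule, other clock genes were to be named if their promoter state differed between WT and both KO libraries or if no library had a promoter peak, as were neighbours whose promoter held a summit in a window. No other clock gene met this rule, and those named, with Camta1 and Car11, were chosen after their values were seen. The genes and lists were chosen with earlier results of these data known. The motif counts over all summits, the RefSeq promoter comparison, the scaling of tags to another background and the ratio at the intron 1 site of Nr1d1 were added after the values were seen. The settings varied were a −log10 q of at least 5, every deposited peak, lists of equal length, promoter windows of 500 and 3000 bases, placement by interval, an upstream window of 5 kb, 50% reciprocal overlap, Dbp counted with the activators, the deposited fold, no centring, motif windows of 250 bases, and leaving out each KO library. Tables were made with pandas 2.3.3 and numpy 2.4.6 under Python 3.11.15, intervals with scipy 1.17.1, sequences with pysam 0.24.0 and plots with matplotlib 3.10.9.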

Additional observations from a re-analysis of the deposited data

How the results depend on the processing

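No paired analysis was possible because WT and KO shared only the replicate number 1 and no test between genotypes was run. Clock genes with a promoter peak in every library numbered 10, but 8 at a −log10 q of at least 5 and 9 with lists of equal length or promoter windows of 500 bases. Of 134 recomputed values 91 stayed within the limits set, and the cause of the other changes was not tested beyond what each setting itself removes or adds. At a −log10 q of at least 5, intronic summits fell to 3 in WT and 3 in KO replicate 2, all summits in KO replicate 2 to 16 and regions in every library to 9, while 1 region was in both KO libraries alone. With every deposited peak, intronic summits were 14, 8 and 21 in WT and KO replicates 1 and 2, all summits in KO replicate 2 were 47, and 1 region was in both KO libraries alone. With lists of equal length, intronic summits were 3 in WT and 3 in KO replicate 2, all summits in KO replicate 2 were 15, and 3 regions were in both KO libraries alone. Intronic summits of KO replicate 2 were 15 with promoter windows of 500 bases, 4 with 3000 bases and 4 with placement by interval. With 50% reciprocal overlap, 8 regions were in every library, 2 in both KO libraries alone and 9 in WT alone. Leaving out 1 KO library gave 1 to 3 regions in KO and not in WT, and 4 to 7 in WT alone (7 without KO replicate 2). For regions in 1 genotype alone, the share over all regions was not computed at any setting.

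The excess of repressors over activators in intronic summits per 10 kb was 0.205 in WT and 0.258 for the mean of KO. In that order it was 0.0505 and 0.181 at a −log10 q of at least 5, 0.0505 and 0.207 with lists of equal length, 0.254 and 0.437 with every deposited peak, 0.255 and 0.414 with promoter windows of 500 bases, 0.206 and 0.207 with 3000 bases, and 0.154 and 0.207 with Dbp among the activators. At the intron 1 site alone, a choice made after seeing the data, Nr1d1 was at -1.19 and -0.60. Without centring, the median log2 ratio of the clock genes turned from -0.36 to 0.68. Within 250 bases of the summit, E-boxes were found in 3 and 2 clock genes in KO replicates 1 and 2. The REV-ERB/ROR letters were found in 2, 2 and 3 in WT and KO replicates 1 and 2. Depth limits what KO replicate 1 can show at weak sites.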

Other observations

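Intron 1 of Cry1 held a summit about 23 kb past the start that did not pass the q-value limit. WT had 8 tags there at 23189 bases past the start, with a −log10 q of 1.63 and 2 matches of the REV-ERB/ROR letters within 150 bases. KO replicate 1 had 3 tags at 22990 bases past the start, with a −log10 q of 0.534 and 1 match. The list of KO replicate 2 held no summit at this place.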
